A study of Fragaria x ananassa with 6 samples.

Results

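FaQR, FaGalur and FaAAT3 are 3 strawberry genes linked to fruit aroma and to ascorbate, and their transcripts were followed in floral buds, before any fruit was present. The members were the non-control spots that the array files name FaQR, FaGalur or FaAAT3. Each gene had 1 probe, printed as 2 spots on every array, so the 3 genes gave 6 spots per array among 35116 features in all. Total RNA came from floral buds of cultivated strawberry (Fragaria x ananassa). In the first group, FaPRE1-OX, plants had been transformed through Agrobacterium strain AGL0 with pK7WG2-FaPRE1, a construct for FaPRE1 overexpression, and the buds were elongated. In the control group the plants carried the empty vector and the buds were normal. Each group had 3 samples, and each of the 3 arrays held 1 FaPRE1-OX and 1 control sample, one in Cy3 and the other in Cy5. FaPRE1-OX was in Cy3 and control in Cy5 on arrays 1 and 3, and the dyes were swapped on array 2. The labels give neither the age of the buds nor the number of transgenic lines. Sample titles in the FaPRE1-OX group read PRE3, although every other label of these samples names FaPRE1.

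As background, ripe strawberry aroma is dominated by furanones and volatile esters. FaQR is a quinone oxidoreductase that acts at the last step of furanone synthesis, where it reduces a reactive intermediate to furaneol. Alcohol acyltransferases such as that named by FaAAT3 join an acyl group to an alcohol and so make the fruity esters. FaGalur is a galacturonate reductase, which turns galacturonate released from pectin into a precursor of ascorbate, that is, vitamin C. All these activities are best known from the ripening receptacle, the fleshy part of the fruit.

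Some facts of the whole series bear on these values. FaPRE1, the gene placed in the construct, had log2 levels of 8.04 to 8.74 in the 3 FaPRE1-OX samples and of 6.09 to 6.64 in the controls. The 6.09 of control 1 lay within the range of FaAAT3, 5.89 to 6.16 over the 6 samples, whose spots were at background. Controls 2 and 3, at 6.64 and 6.37, lay above that range. Well above background were 57.7% to 67.2% of spots in FaPRE1-OX samples and 62.8% to 67.4% in controls, and 0 spots were saturated. FaPRE1-OX 3 stood apart, with a correlation across features of 0.96 with FaPRE1-OX 1 and 2, against 1.00 between these 2. Across tested features the ratios of the first and second arrays correlated at 0.96, and those of the third array at 0.65 and 0.62 with them. The 3 arrays shared 1 slide and 1 scan according to the file headers. Of the floral marker patterns looked for, only FaAP2(1) and FaYabby carried a matching symbol. Both were well above background in 6 of 6 samples, but neither family is restricted to buds, so the tissue could not be checked further.

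FaQR and FaGalur transcripts were measured in every bud sample, whereas no sample gave a FaAAT3 signal clear of the background. The scanner software's call, which asks whether a spot exceeds its background by a wide margin, was positive in 6 of 6 samples for FaQR, 6 of 6 for FaGalur and 0 of 6 for FaAAT3. Over all features on the array, 56.3% were called in 6 samples and 25% in none. Among the 45 features that carry a gene symbol, 33 were called in 6 samples and 8 in none, and FaAAT3 belonged to the 8.

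FaQR was by far the brightest of these probes. The mean intensity of its 2 spots was 5004.5, 12666.25 and 4043.5 scanner units in FaPRE1-OX 1, 2 and 3, and 16103, 5120.25 and 11665 units in controls 1, 2 and 3. The higher readings in both groups were those made in Cy5, the brighter channel. Against the local background, FaQR spots were 86.0 to 158.3 times as bright in FaPRE1-OX samples and 112.5 to 207.8 times as bright in controls.

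FaGalur lay well below FaQR in brightness but clearly above its surroundings. Its mean spot intensity was 220.25, 408.25 and 413.75 units in FaPRE1-OX 1, 2 and 3, and 1702, 688.5 and 1164.5 units in controls 1, 2 and 3. This corresponded to 4.95, 5.27 and 10.5 times the local background in the FaPRE1-OX samples and to 19.9, 15.6 and 16.4 times in the controls. Every FaPRE1-OX sample was thus nearer to background than every control, and FaPRE1-OX 3 was the nearest to the controls.

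FaAAT3 spots were as bright as the glass around them. Mean spot intensity was 45, 73.5 and 56.5 units in FaPRE1-OX 1, 2 and 3, where the local background was 47.5, 76 and 51.5 units. In controls 1, 2 and 3 it was 73, 49 and 76 units over a background of 84, 50.5 and 76.5 units. The spots therefore stood at 0.95 to 1.10 times background in FaPRE1-OX samples and at 0.87 to 0.99 times in controls. A less strict call of the scanner software, positive and significant signal, was raised for 3 of 12 FaAAT3 spot readings, 1 in FaPRE1-OX 2 and 2 in control 3, all in Cy5. The same call was raised for 1.95% to 4.22% of the 308 negative control spots per channel. Among spots that were called well above background, the 5th percentile of intensity was 67 to 100.5 units in FaPRE1-OX samples and 71.5 to 103 units in controls. FaAAT3 lay below that percentile in every sample, although its mean was above the single dimmest such spot in FaPRE1-OX 2, 73.5 against 73 units, and in FaPRE1-OX 3, 56.5 against 51 units. No fold change is given for FaAAT3, because neither group gave a level to compare, and whether buds hold a few transcripts was not detectable on these arrays.

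**Figure D1:**
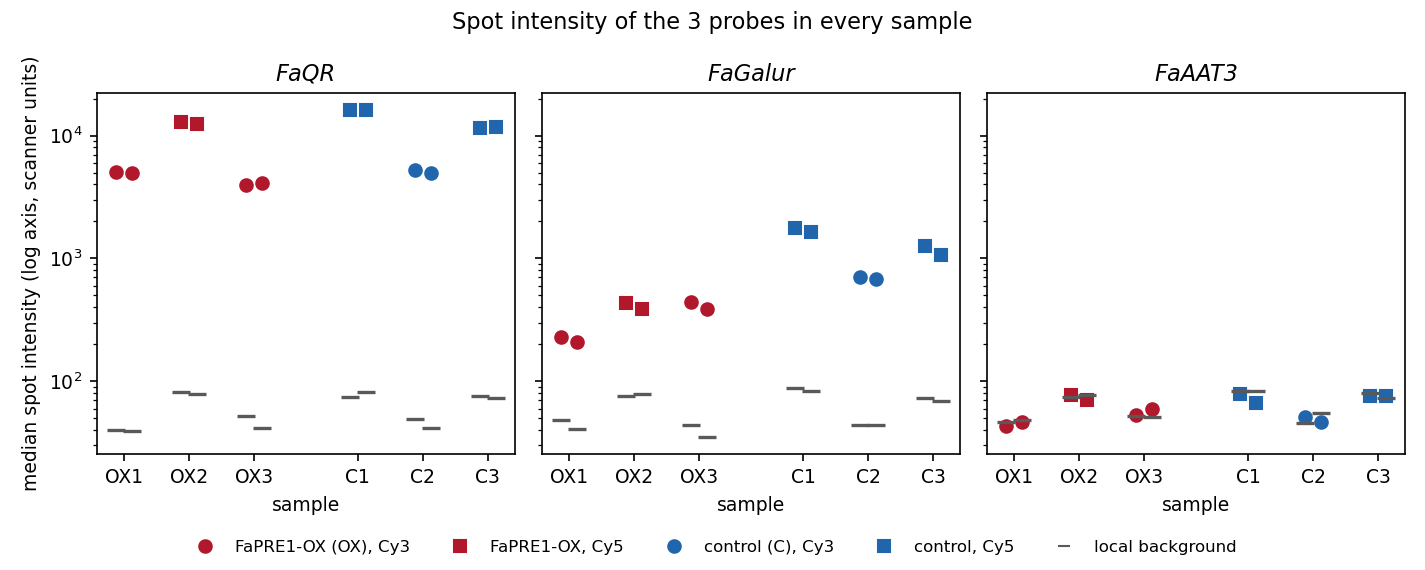
Median intensity of each of the 2 spots of FaQR, FaGalur and FaAAT3 in the 3 FaPRE1-OX and 3 control samples on a log axis, with circles for Cy3, squares for Cy5 and grey bars for the local background. FaQR spots lay 76.4 to 216.6 times above their background, FaGalur spots 4.79 to 20.1 times, and FaAAT3 spots at 0.80 to 1.18 times.

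To place the probes within a sample, log2 levels were taken from channels normalized within arrays by loess and between arrays on their mean intensities, and each was given as a percentile among all features of that sample. Brightness also depends on the probe, so these places describe spots and do not rank transcripts of different genes. FaQR lay at the 97.1, 97.6 and 97.0 percentile in FaPRE1-OX 1, 2 and 3, and at the 97.7, 97.1 and 97.9 percentile in controls 1, 2 and 3. Its rank from the top ran from 738 to 1061 of 35116 features over the 6 samples. FaQR therefore kept its place among the brightest features of the bud in both groups.

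FaGalur lay at the 65.5, 64.7 and 78.7 percentile in FaPRE1-OX 1, 2 and 3, and at the 84.5, 83.6 and 84.8 percentile in the controls. The 3 controls lay close together and the FaPRE1-OX samples below them, with FaPRE1-OX 3 in between. FaAAT3 was at 2.73 to 13.5 in FaPRE1-OX samples and at 0.578 to 11.5 in controls, and the order of values at background has no meaning.

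**Figure D2:**
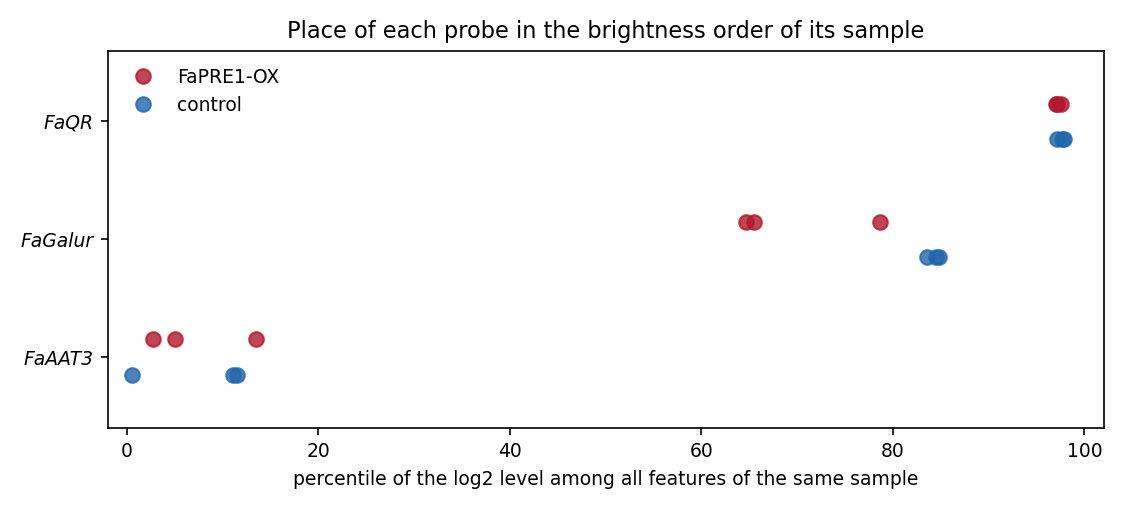
Percentile of the log2 level of FaQR, FaGalur and FaAAT3 among all features of the same sample, with 1 point per sample and FaPRE1-OX above control for each gene. FaQR stayed between the 97.0 and 97.9 percentile in both groups, while FaGalur was at 64.7 to 78.7 in FaPRE1-OX and at 83.6 to 84.8 in controls.

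Of the 2 members with measurable levels, FaGalur had the larger fitted difference between the groups. Its log2 level was 8.11, 8.04 and 9.35 in FaPRE1-OX samples 1, 2 and 3, whereas it was 10.12, 9.99 and 10.09 in controls 1, 2 and 3. The means were 8.50 ± 0.73 in FaPRE1-OX and 10.06 ± 0.07 in control (SD, n = 3 each), so nearly all of the spread lay within FaPRE1-OX. The groups did not overlap. Levels of FaPRE1-OX that all lay below those of the control were found for 25.2% of the 23383 features tested, and groups without overlap in either direction for 45.7%. In these bulk samples, fewer cells that express a gene and less RNA per cell cannot be told apart.

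Within arrays, the log2 ratio of FaPRE1-OX over control for FaGalur was -2.01, -1.94 and -0.74 on arrays 1, 2 and 3. FaGalur was thus 4.03-fold, 3.84-fold and 1.67-fold lower in FaPRE1-OX. The first 2 arrays had opposite dyes and gave nearly the same ratio, and the array that stood apart was the third, which shared its dyes with the first. The duplicate spots of FaGalur differed by 0.03, 0.11 and 0.06 in log2 ratio on the 3 arrays, far less than the gap between the third array and the others. FaGalur stood at the 2.96, 3.16 and 6.74 percentile of the ratios of tested features on arrays 1, 2 and 3, low on each of them.

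The fitted log2 difference of FaGalur was -1.66 ± 0.32 (SE, 3 arrays), or 3.16-fold lower in FaPRE1-OX, with a 95% interval from -2.63 to -0.69. Limma with a dye term gave an adjusted p of 0.0977, which did not pass 0.05. That fit called 0 of 23383 features (0%), with 6762 (28.9%) at an unadjusted p under 0.05, and FaGalur had an unadjusted p of 0.0111. Without the dye term the difference was -1.56 ± 0.29 with an adjusted p of 0.0314 in limma, so FaGalur fell in that fit. It called 22.6% of the tested features, and 12.8% of the tested features were called lower in FaPRE1-OX. Over 16 other settings the adjusted p in limma ran from 5.27e-10 to 0.191 and FaGalur was lower in FaPRE1-OX in 16 of 16. The smallest p came without the third pair of samples, where the difference was -1.98 and 13929 of the 23383 features were called. The labels speak of RNA from independent buds but not of separate transgenic lines, so a p-value here covers variation among these samples only, and part of that may be technical.

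FaQR had a smaller fitted difference, and its lower ratios were on the arrays with the control in Cy5. Only array 2 had the other orientation, so the dye and sample pair 2 cannot be told apart. Its log2 level was 12.64, 12.96 and 12.63 in FaPRE1-OX 1, 2 and 3, and 13.27, 12.96 and 13.26 in controls 1, 2 and 3. The means were 12.74 ± 0.19 in FaPRE1-OX and 13.17 ± 0.17 in control (SD, n = 3 each). The highest FaPRE1-OX level, read in Cy5, and the lowest control level, read in Cy3, were 12.957 and 12.964. The groups thus did not overlap but nearly met at sample 2. FaPRE1-OX levels all below those of the control were found for 25.2% of the 23383 tested features. Groups without overlap in either direction were found for 45.7%.

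The FaQR log2 ratio was -0.63, -0.008 and -0.63 on arrays 1, 2 and 3. The 2 arrays with the control in Cy5 gave the same value, and the array with swapped dyes gave a ratio of 0.995. Duplicate spots differed by only 0.06, 0.02 and 0.04, less than the gap between the arrays, and both spots of each array gave that gap. A ratio below 0 on all 3 arrays was found for 32.2% of tested features. On array 2 the sign for FaQR was not settled. Its spots were at -0.02 and 0.003, and the processed signals of the scanner software gave 0.08. The fitted dye coefficient of FaQR was 0.31 ± 0.11 (SE) on the log2 scale, with a 95% interval from -0.02 to 0.64. Its adjusted p was 0.99991 in limma, so it did not pass the test, and that fit has 1 residual degree of freedom. A coefficient at least as far from 0 was found for 6.01% of tested features, and one at least as high in the same direction for 1.59%. For FaGalur the coefficient was -0.28 ± 0.32.

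With the dye term, FaQR had a fitted difference of -0.32 ± 0.11 (SE, 3 arrays), or 1.25-fold lower in FaPRE1-OX, with a 95% interval from -0.65 to 0.01. Its adjusted p was 0.183 in limma with the dye term and 0.131 without it, where the difference was -0.42 ± 0.16. FaQR passed neither fit. The difference was -0.63 when the second pair was left out, and then rested on arrays of 1 dye orientation only. The interval of FaQR included 0. The difference between the 2 genes was not tested.

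**Figure D3:**
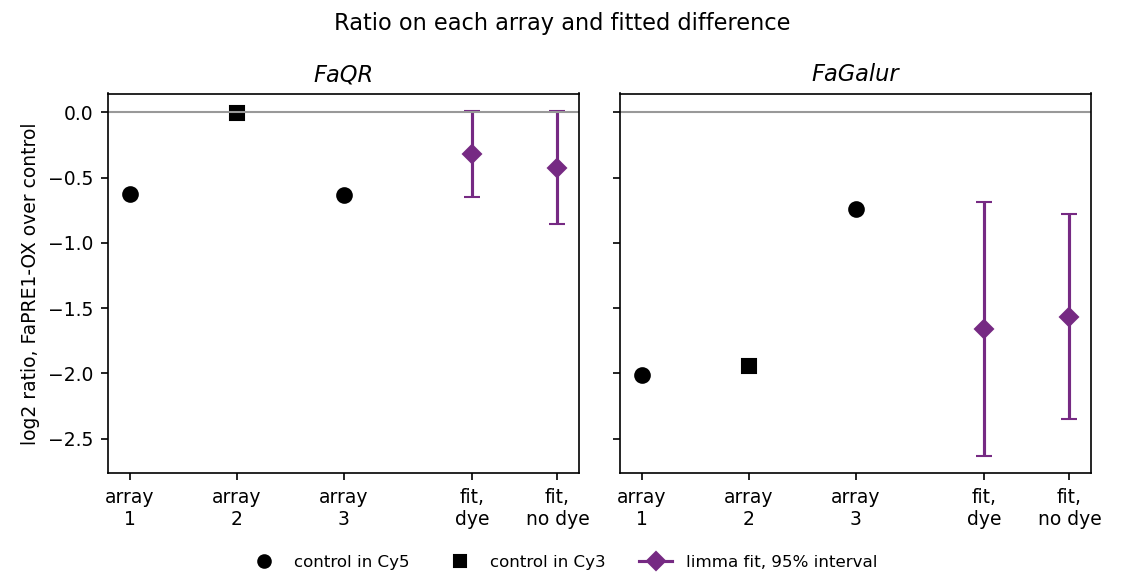
Log2 ratio of FaPRE1-OX over control for FaQR and FaGalur on each of the 3 arrays, and the fitted difference with its 95% interval in limma with and without a dye term. FaQR was at -0.63 on both arrays with the control in Cy5 and at -0.008 on the array with swapped dyes, while FaGalur was at -2.01, -1.94 and -0.74.

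On the third array the genes came closer to each other. The log2 ratio of FaGalur minus that of FaQR was -1.38, -1.93 and -0.11 on arrays 1, 2 and 3. The spread of ratios over all tested features was also smaller there, with an SD of 0.54 on array 3, against 0.75 and 0.74 on arrays 1 and 2. There were 1052 features at a ratio of -1.5 or lower on both of the first arrays, as FaGalur was. On the third array these had a median of -1.16 and quartiles of -1.68 and -0.54, and 68.8% of them were lower than FaGalur. FaGalur was therefore nearer to 0 there than the median of these features but lay between their quartiles. The part of sample 3 in this difference was not tested.

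**Figure D4:**
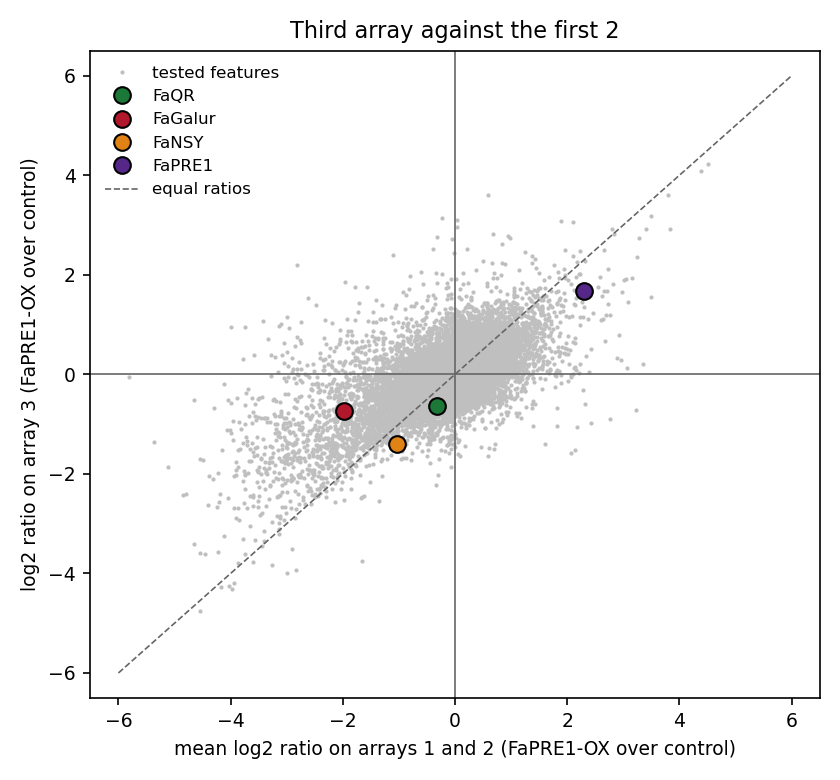
Log2 ratio of FaPRE1-OX over control on the third array against the mean ratio of the first 2 arrays, for all tested features in grey and for FaQR, FaGalur, FaNSY and FaPRE1 in colour, with a dashed line for equal ratios. FaGalur lay at -0.74 on the third array, above the line, and FaNSY at -1.40, below it.

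The array held 6 symbols that matched the patterns for fruit aroma and ascorbate synthesis, the 3 genes above with FaNSY, FaATT1 and FaATT2. The files do not say what these other symbols stand for, so their place in the list is unsure. FaATT1 and FaATT2 were like FaAAT3, with 0 of 6 samples well above background for either. Their spots lay at 0.84 to 1.29 and 0.76 to 1.49 times the local background. FaNSY was well above background in 6 of 6 samples. Its ratio was -1.02, -1.04 and -1.40 on the 3 arrays, and its fitted difference was -1.13 ± 0.14 (SE), and limma gave it an adjusted p of 0.0703 when the dye was in the model and of 0.01005 when it was not. In contrast to FaGalur, FaNSY was lowest on the third array.

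Of the 6 symbols, 3 were tested, 0 passed with the dye term, and 2, FaGalur and FaNSY, fell in the fit without it, which called 22.6% of all tested features and 12.8% lower. That fit called 0 of the 3 higher. The median difference of the 36 tested symbols was -0.22 on the log2 scale, and that of all tested features was -0.02. Ordered from the lowest difference, FaGalur was at place 3, FaNSY at place 6 and FaQR at place 17 of the 36 symbols.

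Over the 6 samples, the level of FaGalur was most like that of Fraa among the symbols, with a Pearson r of 0.995. Fraa belongs to the Fra a proteins of strawberry, known as fruit allergens. Its ratios of -1.49, -1.44 and -0.68 also weakened on the third array. The next were Famalonyltransf, by its symbol a malonyltransferase, at 0.976 and FaGST1, by its symbol a glutathione S-transferase, at 0.973. Likeness of this degree was common, since 163 tested features had an r with FaGalur of at least that of Fraa, and 1227 at least that of FaGST1. FaGST1 was dim, with a mean log2 level of 6.55, place 35 of the 36 tested symbols from the brightest. The gene model closest to FaGalur was gene03700 with 0.99994.

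FaQR was most like FaFbox1, by its symbol an F-box protein, with an r of 0.958, followed by FaFHT, a flavanone hydroxylase of the flavonoid pathway, at 0.905 and FaNSY at 0.847. FaFbox1 had ratios of -0.69, -0.15 and -0.44 and FaFHT of -0.64, 0.20 and -0.34 on arrays 1, 2 and 3, so both shared the value nearer to or above 0 on the swapped array. At least as like FaQR as these symbols were 76, 394 and 1063 tested features for FaFbox1, FaFHT and FaNSY in turn. The closest gene model was gene10430 with 0.991. FaQR and FaGalur correlated at 0.63 over the same 6 samples. These values describe 6 samples that share arrays, dyes and groups.

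**Figure D5:**
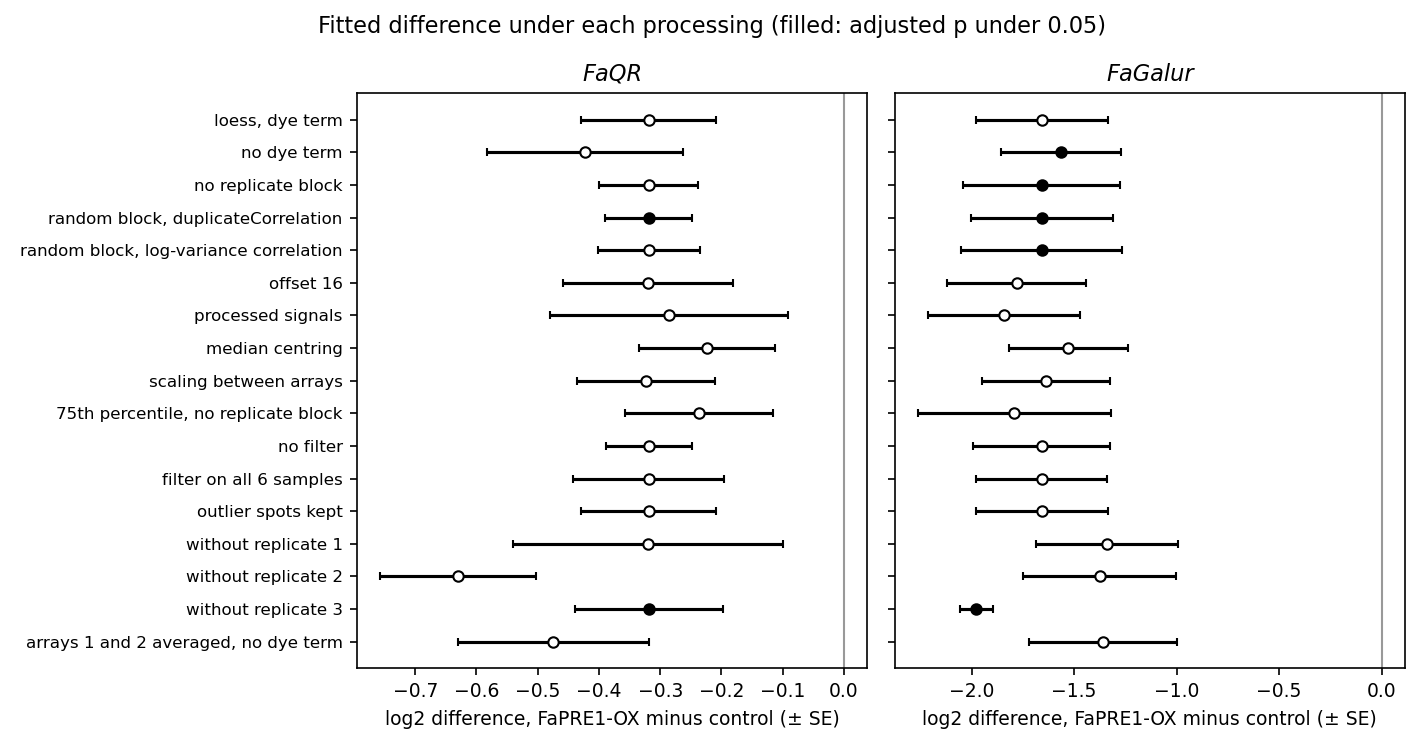
Fitted log2 difference of FaPRE1-OX minus control (± SE) for FaQR and FaGalur under each processing setting, with filled points where the adjusted p in limma was under 0.05. FaQR lay between -0.63 and -0.22 and FaGalur between -1.98 and -1.34, below 0 in each setting.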

How the data were processed

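The authors deposited 2-colour scanner output with spot, local background and processed intensity values, extracted with Agilent Feature Extraction 10.7 per the labels. The labels list each dye channel as a sample. Samples were assigned to groups, dyes and arrays from the labels. The members and lists were chosen with earlier results of these data known. Sequences of the probes were not used here, and 0 array identifiers matched the reference gene table.

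Median spot intensity was background-corrected with normexp (offset 50) and normalized by loess within arrays in limma 3.58.1 (R 4.3.3), with control spots at weight 0 and spots flagged as outliers left out. Means were taken over the spots of a probe and then over the probes of a feature. Testing required a probe called well above background by the scanner software in 3 or more of 6 samples, which 2 of the 3 members met. Ratios turned to FaPRE1-OX over control were fitted with limma (lmFit and eBayes, two-sided, Benjamini-Hochberg over 23383 features, threshold 0.05) with a dye term. That fit has 1 residual degree of freedom, and the fit without the dye term has 2. The offset draws ratios of dim probes toward 0. On simulated data both fits had to return the sign of added differences, and the fit with the dye term also their size. False calls were not a criterion there. The number of arrays limits the precision.

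According to the labels a replicate number is a shared array, so the ratio keeps the pairing as a block. Taken as deviations from their group's mean, the 2 samples of replicates 1, 2 and 3 had correlations of 0.17, 0.18 and 0.13 over features. Besides the members, the text names matching aroma and ascorbate symbols and, for each tested member, the 3 symbols and the 1 gene model with the highest r over 6 levels.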

Additional observations from a re-analysis of the deposited data

How the results depend on the processing

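FaGalur and FaQR kept their sign in 16 of 16 alternatives each. FaGalur passed 0.05 in limma in 5 of them. These were the fit without the dye term (-1.56), the fit with no replicate block (-1.66, adjusted p = 0.0414), a random replicate block from limma's duplicateCorrelation (-1.66) or with the correlation taken from log variances (-1.66, adjusted p = 0.0478), and the fit without replicate 3. In the order given, these 5 fits called 5292, 4239, 5808, 3813 and 13929 of the 23383 tested features. FaQR passed in 2 alternatives, the random block with duplicateCorrelation (-0.32, adjusted p = 0.0317) and the fit without replicate 3 (adjusted p = 0.0382). Those 2 fits called 5808 and 13929 of the 23383 features. The correlation of channels on an array was 0.18 by duplicateCorrelation. Taken from log variances, a setting chosen after seeing the data, it was -0.05, and FaQR did not pass (adjusted p = 0.0603). When each replicate was left out, always without the dye term, FaGalur lay between -1.98 and -1.34 and FaQR between -0.63 and -0.32. Without replicates 1, 2 and 3 the adjusted p of FaGalur was 0.186, 0.188 and 5.27e-10. With the first 2 arrays averaged as 1 replicate, also chosen after seeing the data, FaGalur was at -1.36 and FaQR at -0.47. With the processed signals, FaGalur was at -1.84.

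The count of features called, 0 with the dye term, was 5292 without it. With no replicate block it was 4239, or 4683 when channels were also scaled to the 75th percentile, and the random block gave 5808 by duplicateCorrelation and 3813 by log variances. Scaling between arrays gave 412, an offset of 16 gave 900, median centring 1056 and the processed signals 1438. Omitting 1 replicate at a time gave 0 to 13929, the highest without replicate 3. Of the features at an unadjusted p under 0.05 in limma, 43.6% were higher in FaPRE1-OX. That share was 60.0% with median centring and 55.3% with 75th percentile scaling. The cause was not tested.

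Detection of FaQR and FaGalur held in 6 of 6 samples under both other rules. FaAAT3 stayed at 0 with local background plus 2 SD. It came to 4 of 6 when at least 1 of its 2 spots had to exceed the 95th percentile of the negative controls, while its mean intensity did not exceed local background in 5 of 6 samples.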
